A study of Mus musculus with 6 samples.

Results

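The genes followed here encode 9 enzymes or enzyme subunits of the citric acid cycle: Cs, Idh3a, Ogdh, Dlst, Dld, Sucla2, Suclg1, Fh1 and Mdh2. Histone H3 acetylated at lysine 9 (H3K9ac), which is found at promoters in use, was mapped over them in epithelial cells of the mouse distal intestine. Members were found by symbol: an interval of a peak list belonged to the set when the authors had tied it to 1 of the 9 names, whatever its region class. The 9 genes stood among 21887 protein-coding genes, and 48 of the 42835 nuclear intervals of the 6 peak lists were theirs. All mice were C57BL/6 with no altered allele named in the labels. One group was monoassociated with E. coli, that is, colonized by this bacterium alone, one was conventionally housed, with an ordinary microbiota, and one was germ-free. Each group had 2 libraries, labelled replicates 1 and 2. The labels do not name the animals behind each library, so p-values measure only the spread between libraries, which may be technical. They give no age of the mice and no E. coli strain.

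The citric acid cycle runs in the mitochondrial matrix. It oxidizes the acetyl group of acetyl-CoA to carbon dioxide and hands the electrons to the respiratory chain as NADH and reduced flavin. Its enzymes are encoded in the nucleus and are needed in every respiring cell, and in the intestinal epithelium the cycle also takes in the carbon of glutamine and, in the colon, of microbial butyrate. Citrate exported from the cycle is a source of the cytosolic acetyl-CoA from which histone acetyltransferases draw their acetyl groups.

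Promoter sequences are shown for 6 members, chosen because they bracket the range of calls: Cs, Ogdh and Sucla2 were the only members with a peak in an E. coli library, Mdh2 shares its promoter with a divergent gene, and Fh1 and Suclg1 had peaks in germ-free libraries only. Each is the 250 bases upstream of the start site in the RefSeq promoter table of GRCm38.p6, on the strand of the gene. Capitals mark the GC box GGGCGG, the CCAAT box and the cyclic AMP response element TGACGTCA, on either strand. The stretches are chr10:128337477-128337726 (plus strand) for Cs, chr11:6291347-6291596 (plus) for Ogdh, chr14:73552536-73552785 (plus) for Sucla2, chr5:135778399-135778648 (plus) for Mdh2, chr1:175625636-175625885 (minus) for Fh1 and chr6:73248255-73248504 (plus) for Suclg1.
Cs: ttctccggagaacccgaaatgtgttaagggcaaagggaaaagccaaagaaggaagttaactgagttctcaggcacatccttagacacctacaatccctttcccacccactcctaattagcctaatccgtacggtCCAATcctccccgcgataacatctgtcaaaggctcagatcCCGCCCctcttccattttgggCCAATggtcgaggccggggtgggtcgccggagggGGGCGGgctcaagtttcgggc
Ogdh: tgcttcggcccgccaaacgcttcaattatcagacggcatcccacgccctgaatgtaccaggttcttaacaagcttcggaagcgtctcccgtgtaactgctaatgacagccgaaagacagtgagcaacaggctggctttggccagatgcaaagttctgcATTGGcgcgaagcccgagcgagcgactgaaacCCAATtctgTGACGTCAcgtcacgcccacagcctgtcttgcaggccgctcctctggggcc
Sucla2: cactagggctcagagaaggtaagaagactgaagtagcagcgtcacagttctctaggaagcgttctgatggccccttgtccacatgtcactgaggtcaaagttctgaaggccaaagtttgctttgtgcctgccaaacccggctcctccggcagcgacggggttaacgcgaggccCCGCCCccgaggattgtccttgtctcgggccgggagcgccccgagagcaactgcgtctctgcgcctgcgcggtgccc
Mdh2: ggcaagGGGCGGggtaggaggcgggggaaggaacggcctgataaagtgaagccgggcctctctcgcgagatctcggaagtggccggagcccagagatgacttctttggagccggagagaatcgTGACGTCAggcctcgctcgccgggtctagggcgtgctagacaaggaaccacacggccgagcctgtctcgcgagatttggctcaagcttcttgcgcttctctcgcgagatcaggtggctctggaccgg
Fh1: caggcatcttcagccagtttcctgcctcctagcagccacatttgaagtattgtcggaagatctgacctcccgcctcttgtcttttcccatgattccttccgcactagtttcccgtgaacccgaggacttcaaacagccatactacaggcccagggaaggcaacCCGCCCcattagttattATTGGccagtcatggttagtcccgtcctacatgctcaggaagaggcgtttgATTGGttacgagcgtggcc
Suclg1: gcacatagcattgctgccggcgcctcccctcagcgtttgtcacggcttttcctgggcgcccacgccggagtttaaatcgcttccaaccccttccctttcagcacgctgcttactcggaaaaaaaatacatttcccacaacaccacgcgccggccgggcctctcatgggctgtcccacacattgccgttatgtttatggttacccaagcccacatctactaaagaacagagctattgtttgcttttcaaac

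The peak lists differed widely in length. Leaving out mitochondrial intervals, they held 1986 and 868 intervals in the E. coli libraries (replicates 1 and 2), 3113 and 15348 in the conventional libraries, and 4428 and 17092 in the germ-free libraries. The labels state one sequencing depth for all libraries, and no reads per library were counted. The background pileup, the mean coverage of extended reads against which each list was scored, was lowest at 0.381 in conventional replicate 2 and highest at 0.733 in germ-free replicate 1, and in germ-free replicate 2 it was inferred from the folds. Each interval's fold enrichment and pileup are the authors' own values, except the pileups of germ-free replicate 2, which were inferred from the folds. Both were computed in the interval's own list, so they rank intervals within a list and only calls are compared between libraries. The lowest fold listed was between 3.62 and 4.28, and weaker enrichment is not in the lists, so the mark may also be present at a gene with no call. The label of the tissue held against its markers: of 15 epithelial genes, 11 and 8 had a promoter peak in the E. coli libraries, 13 and 15 in the conventional and 13 and 14 in the germ-free libraries. Of 14 lymphocyte and myeloid genes Cd14 was the only one with a promoter peak, in E. coli replicate 1, conventional replicate 2 and germ-free replicate 2, and none of 14 stromal, endothelial, muscle and nerve genes had one. Outside promoters, Itgam had an interval in germ-free replicate 2 and Kdr in E. coli replicate 1. So did Cdh5 and Myh11 in conventional replicate 2, and Cdh5 and Pecam1 in germ-free replicate 1. Over all protein-coding genes the shares with a promoter peak were 4.3 and 1.91% (E. coli), 9.26 and 33.3% (conventional) and 11.2 and 30.1% (germ-free). With so few genes called in the E. coli libraries, a missing peak says little there.

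A promoter peak is used below for an interval tied to the gene that reached into the 1 kb on either side of a start site of the gene. Such a peak was called at 1 and 2 of the 9 genes in the E. coli libraries, at 5 and 7 in the conventional libraries and at 6 and 9 in the germ-free libraries. As shares of the set these are 11.1 and 22.2%, 55.6 and 77.8%, and 66.7 and 100%. Over all protein-coding genes the shares with a promoter peak were 4.3 and 1.91% in the E. coli libraries, 9.26 and 33.3% in the conventional libraries and 11.2 and 30.1% in the germ-free libraries. In each of the 6 libraries the share among the 9 genes was thus above that over all genes, and both shares were lowest in the E. coli libraries. The 9 genes were chosen with earlier results of these data known, so this excess is a description and not a test. Every member had a promoter peak in at least 1 library and none in all 6. Counting intervals of any class gave the same 6 counts of members, against 6.46, 2.58, 10.6, 37.5, 14.4 and 34.6% of all genes in the same order of libraries.

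**Figure D1:**
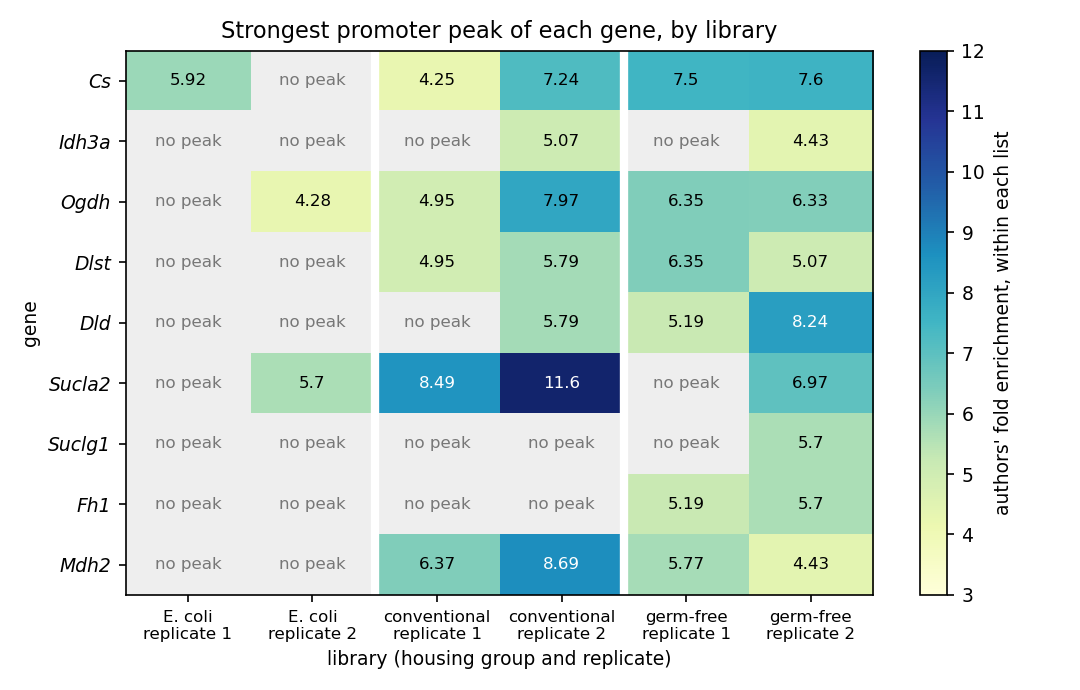
Fold enrichment of the strongest promoter peak of each of the 9 genes (rows, in the order of the cycle) in each library (columns, with E. coli for E. coli-monoassociated), the colour giving the authors' fold within that library's list. Colours rank genes within a column and do not compare levels between columns. The E. coli columns hold 3 called cells, with the fold 5.92 at Cs, 4.28 at Ogdh and 5.70 at Sucla2, while every cell of germ-free replicate 2 is called.

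Citrate synthase, encoded by Cs, joins acetyl-CoA to oxaloacetate and opens the cycle. Its promoter peak had a fold of 5.92 in E. coli replicate 1 and was not called in E. coli replicate 2. Within their own lists its folds were 4.25 and 7.24 in the conventional libraries and 7.50 and 7.60 in the germ-free libraries. Cs was thus called in 5 of the 6 libraries. The place of the peak within its list varied much: it lay at the 68.9th percentile of folds in E. coli replicate 1, at the 13.97th and 84.4th in the conventional lists and at the 90.3rd and 88.5th in the germ-free lists. In conventional replicate 1 it had the lowest fold that list holds. The pileup behind the E. coli call was 9 extended reads, with an exact Poisson 95% interval of 4.12 to 17.1, an interval that, like all those given here, covers counting error only.

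The promoter intervals of Cs lay just downstream of the start site. They were chr10:128337967-128338216 in E. coli replicate 1, chr10:128338268-128338465 in conventional replicate 1 and chr10:128337976-128338209 in germ-free replicate 1, on mm10, with the start site at 128337727 on the plus strand. The interval of conventional replicate 1 lay 51 bases downstream of that of E. coli replicate 1 and 58 bases downstream of that of germ-free replicate 1, and overlapped neither. Conventional replicate 2 and germ-free replicate 2 each had 2 promoter intervals there, which together overlapped both positions, and each had 1 more interval in an intron. A further intronic interval, chr10:128354341-128354486, was called in germ-free replicate 1.

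Idh3a encodes the catalytic alpha subunit of the NAD-dependent isocitrate dehydrogenase, which makes 2-oxoglutarate. It had no peak in either E. coli library, a fold of 5.07 in conventional replicate 2 only, and a fold of 4.43 in germ-free replicate 2 only. Both calls were in the longest list of their group. The same calls, conventional replicate 2 and germ-free replicate 2 and no other library, were found at 2677 genes, 32.6% of the 8209 genes with a promoter peak in any library. The intervals did not coincide: chr9:54586580-54586827 and chr9:54587038-54587184 in conventional replicate 2, and chr9:54587357-54587551 in germ-free replicate 2, 172 bases further downstream.

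The 2-oxoglutarate dehydrogenase complex turns 2-oxoglutarate into succinyl-CoA and is built of 3 kinds of subunit, encoded by Ogdh (the dehydrogenase, E1), Dlst (the succinyltransferase, E2) and Dld (the dihydrolipoamide dehydrogenase, E3, which the pyruvate dehydrogenase complex shares). Ogdh had no peak in E. coli replicate 1 and a fold of 4.28 in E. coli replicate 2. Within their own lists its folds were 4.95 and 7.97 in the conventional libraries and 6.35 and 6.33 in the germ-free libraries. The E. coli call was at the lowest fold that its list holds and rested on a pileup of 5, with a Poisson 95% interval of 1.62 to 11.7. Ogdh carried the widest interval of all 9 genes, 936 bases at chr11:6291760-6292695 in conventional replicate 2, and in that library it had 6 intervals, of which 3 counted as promoter peaks and 3 lay in an intron. RefSeq lists 6 start sites for the gene over about 1 kb, between 6291597 and 6292579. The start site of the gene Gm46270, on the other strand, lies 666 bases downstream of the first of them, inside the intervals of the conventional and germ-free libraries. The interval nearest the start overlapped between every pair of the 5 libraries that called it.

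Dlst had no peak in either E. coli library, with folds of 4.95 and 5.79 in the conventional libraries and 6.35 and 5.07 in the germ-free libraries. The conventional and germ-free groups overlapped in their calls, both libraries of each being called, and the E. coli group had none. The germ-free intervals lay apart: chr12:85111344-85111625 in replicate 1, against chr12:85110334-85110480, upstream of the start site at 85110822, and chr12:85110965-85111260 in replicate 2, 83 bases short of the interval of replicate 1. Conventional replicate 2 had 3 Dlst intervals, 1 of them upstream of the start.

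Dld had no peak in either E. coli library nor in conventional replicate 1, a fold of 5.79 in conventional replicate 2, and folds of 5.19 and 8.24 in the germ-free libraries. The value of germ-free replicate 2 was the highest of the 9 genes in that library, at the 91.4th percentile of its list. Its strongest interval in each library, chr12:31350913-31351271 in conventional replicate 2, chr12:31350667-31350938 in germ-free replicate 1 and chr12:31350552-31351054 in germ-free replicate 2, overlapped those of the others and lay downstream of the start site at 31351471 on the minus strand. All 3 subunit genes of the complex were thus called in both germ-free libraries, and 2 of the 3 in both conventional libraries. In the E. coli group 1 of the 3, Ogdh, was called, in 1 library, and Dlst and Dld were not. Such a lack of E. coli calls was common at large. It was seen at 65.4% of the 2268 protein-coding genes that had a promoter peak in each germ-free library. The 2 of 3 found here are near that background.

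**Figure D2:**
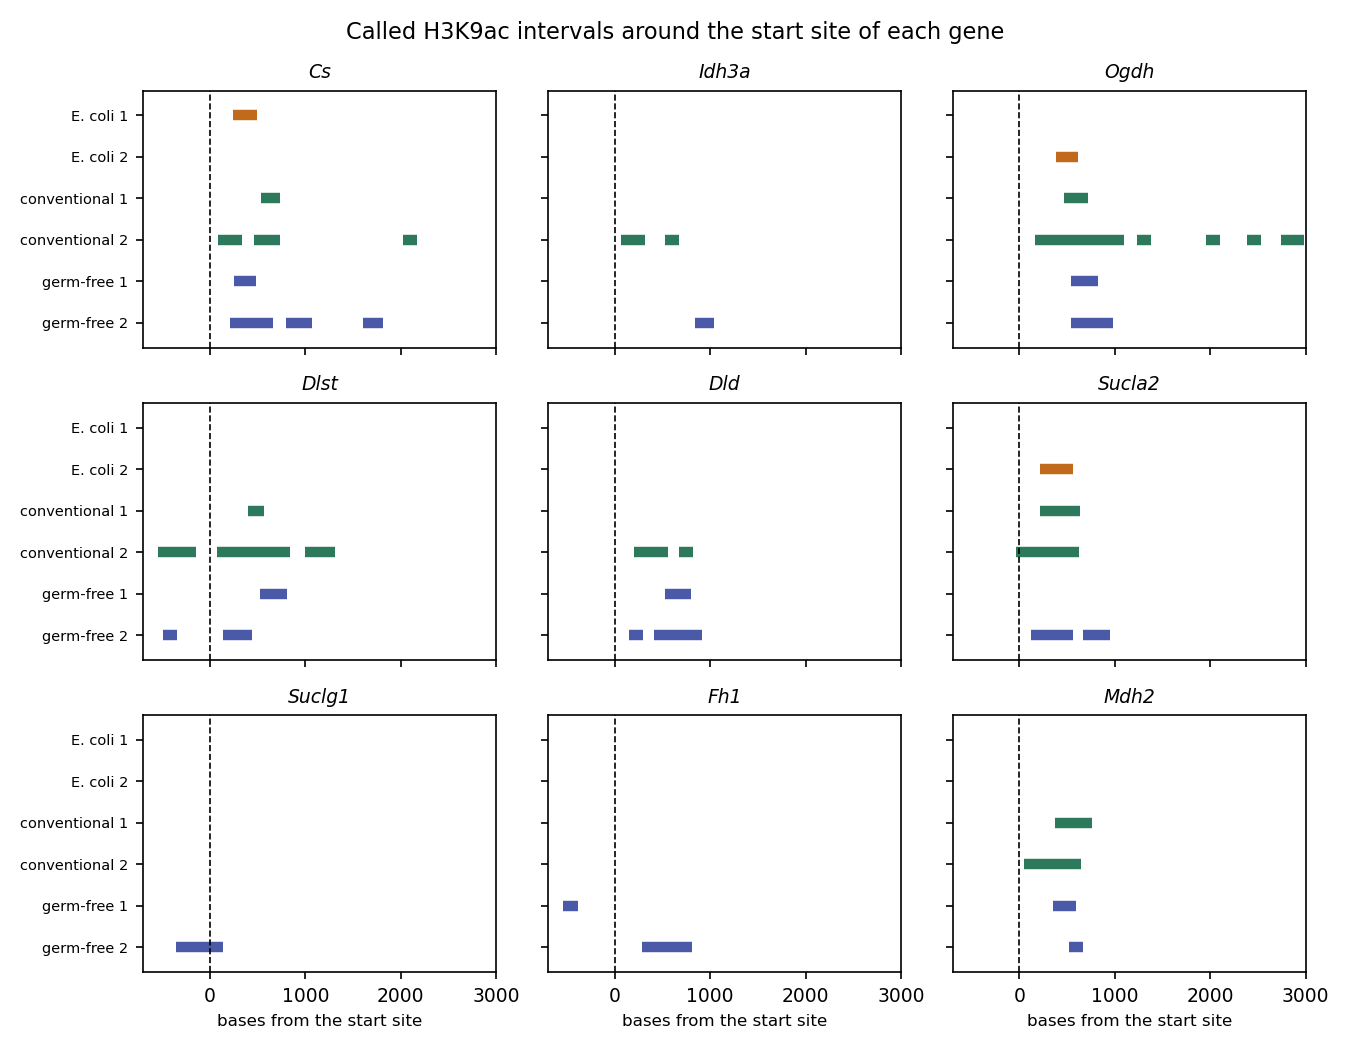
Position of the called intervals of each gene (panels) in each library (rows), in bases from the outermost start site along the gene's strand, with the dashed line at the start. The bars lie mostly within 1 kb downstream of the line, 3 lie wholly upstream of it (at Fh1 and Dlst), and 3 intronic intervals further downstream, at Cs and Ogdh, are outside the window.

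Succinyl-CoA ligase converts succinyl-CoA to succinate and conserves the energy as a nucleoside triphosphate. Sucla2 encodes its ADP-specific beta subunit and Suclg1 the alpha subunit that pairs with either beta subunit. Sucla2 had no peak in E. coli replicate 1 and a fold of 5.70 in E. coli replicate 2. Within their own lists its folds were 8.49 and 11.6 in the conventional libraries. Sucla2 had no peak in germ-free replicate 1 and a fold of 6.97 in germ-free replicate 2. It was the strongest member in both conventional lists, at the 92.3rd and 97.3rd percentiles, with pileups of 11 (Poisson 95% interval 5.49 to 19.7) and 15 (8.40 to 24.7). Sucla2 was the one member called in both conventional libraries that was missing from a germ-free library. Its calls, E. coli replicate 2, both conventional libraries and germ-free replicate 2, were shared by 29 genes, 0.353% of genes with a promoter peak. The 4 libraries overlapped in position around chr14:73553007-73553348, just downstream of the start site at 73552786.

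Suclg1 was called in germ-free replicate 2 alone, with a fold of 5.70 and a pileup of 8, at chr6:73248149-73248644. This interval lay across the start site at 73248505. A call in germ-free replicate 2 and nowhere else was found at 781 genes, 9.51% of those with a promoter peak in any library.

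Fumarase, encoded by Fh1, hydrates fumarate to malate. Fh1 had no peak in either E. coli library and none in either conventional library, with folds of 5.19 and 5.70 and pileups of 8 and 8 in the germ-free libraries. It was the only member called in both germ-free libraries and in no other, a combination shown by 53 genes, 0.646% of genes with a promoter peak. The 2 germ-free peaks were not at the same place. That of replicate 1, chr1:175626020-175626175, lay wholly upstream of the start site at 175625635 on the minus strand, and that of replicate 2, chr1:175624825-175625352, lay wholly downstream, with 667 bases between them.

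Mdh2 encodes the mitochondrial malate dehydrogenase, which restores oxaloacetate and closes the cycle. It had no peak in either E. coli library, folds of 6.37 and 8.69 in the conventional libraries and folds of 5.77 and 4.43 in the germ-free libraries. Its peaks in the 4 libraries overlapped one another in every pair, the first in conventional replicate 1 at chr5:135779025-135779409. The start site at 135778649 lies 264 bases from that of Styxl1, which is transcribed the other way, and intervals here were tied by the authors to both genes, so the mark cannot be assigned to one of them. Mdh2 and Dlst had the same calls, both conventional and both germ-free libraries and no E. coli library, which 595 genes shared, 7.25% of genes with a promoter peak. Of the 1230 genes called in both conventional and both germ-free libraries, 48.4% had no E. coli call. Of the 4 members so called, 2 had none, which is near that background.

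The first comparison set E. coli monoassociation against the germ-free state. The E. coli libraries had 1.5 ± 0.707 of the 9 genes with a promoter peak and the germ-free libraries 7.5 ± 2.12 (SD, n = 2 each). The difference was -6 genes, with no overlap between the groups (two-sided exact permutation p = 0.333, which is the smallest that 2 libraries against 2 allow). Over all protein-coding genes the shares were 3.10 ± 1.69% in the E. coli and 20.6 ± 13.4% in the germ-free libraries (SD, n = 2 each), a difference of -17.5 percentage points that likewise did not overlap. Of the 6 members called in both germ-free libraries, 4 were called in neither E. coli library, namely Fh1, Dlst, Dld and Mdh2, and the other two, Cs and Ogdh, were each called in 1. Of the 2268 genes called in both germ-free libraries, 65.4% were called in neither E. coli library (6.78% of all protein-coding genes), so 4 of 6 is near the background. No member was called in both E. coli libraries.

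When each list was reduced to its 868 most significant intervals, the length of the shortest list, the number of members with a promoter peak was 1 and 2 in the E. coli libraries, 1 and 1 in the conventional libraries and 1 and 0 in the germ-free libraries. Over all genes the shares were then 1.83 and 1.91% in the E. coli, 2.58 and 3.31% in the conventional and 2.41 and 2.98% in the germ-free libraries. The difference in members between the E. coli and the germ-free groups then had the opposite sign, at 1 gene, a value that rests on 0 to 2 genes per library, while over all genes the E. coli libraries were still lowest. With at least 500 bases of overlap required the difference was -1 with overlapping groups, and at a -log10 q of 5 or more it was -3.5. The part of list length in these differences was not tested. A lower share of cells with the mark and less mark per cell cannot be told apart in such bulk samples.

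The second comparison set the conventional microbiota against the germ-free state. The conventional libraries had 6 ± 1.41 members with a promoter peak and the germ-free libraries 7.5 ± 2.12 (SD, n = 2 each), a difference of -1.5 genes with overlapping groups (two-sided exact permutation p = 0.667). Over all genes the shares were 21.3 ± 17.0% and 20.6 ± 13.4% in the same order. Without germ-free replicate 2 the difference in members was 0, and without germ-free replicate 1 it was -3. No member was called in both conventional libraries and neither germ-free library, where the background was 3.34% of the 2004 genes called in both conventional libraries (0.306% of all genes). Fh1 was the 1 member of 6 called in both germ-free libraries and neither conventional library, where the background was 2.43% of 2268 genes (0.251% of all genes). With germ-free replicate 1 left out Suclg1 had that pattern too, and with conventional replicate 2 left out Dld did, where the shares of all genes were 3.86 and 4.73%. When the 2 germ-free peaks had to overlap no member had it.

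The third comparison set the conventional microbiota against E. coli alone. The conventional libraries had 6 ± 1.41 and the E. coli libraries 1.5 ± 0.707 members with a promoter peak (SD, n = 2 each). The difference was 4.5 genes and the groups did not overlap (two-sided exact permutation p = 0.333). Over all genes the difference was 18.2 percentage points. Of the 5 members called in both conventional libraries, 2 were called in neither E. coli library, Dlst and Mdh2, against 61.6% of the 2004 genes called in both conventional libraries (5.64% of all genes). The count was 4 without conventional replicate 1, when Idh3a and Dld were added, and 4 without E. coli replicate 2, when Ogdh and Sucla2 were added. These patterns were then shown by 28.3 and 6.17% of all genes. With the lists reduced to 868 intervals the difference was -0.5 genes, and with 500 bases of overlap it was 2, the groups then overlapping. With 500 bases the shares over all genes were 1.05 and 12.9% in the conventional and 0.306 and 0.110% in the E. coli libraries. The 3 comparisons share their libraries and are not independent of one another.

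**Figure D3:**
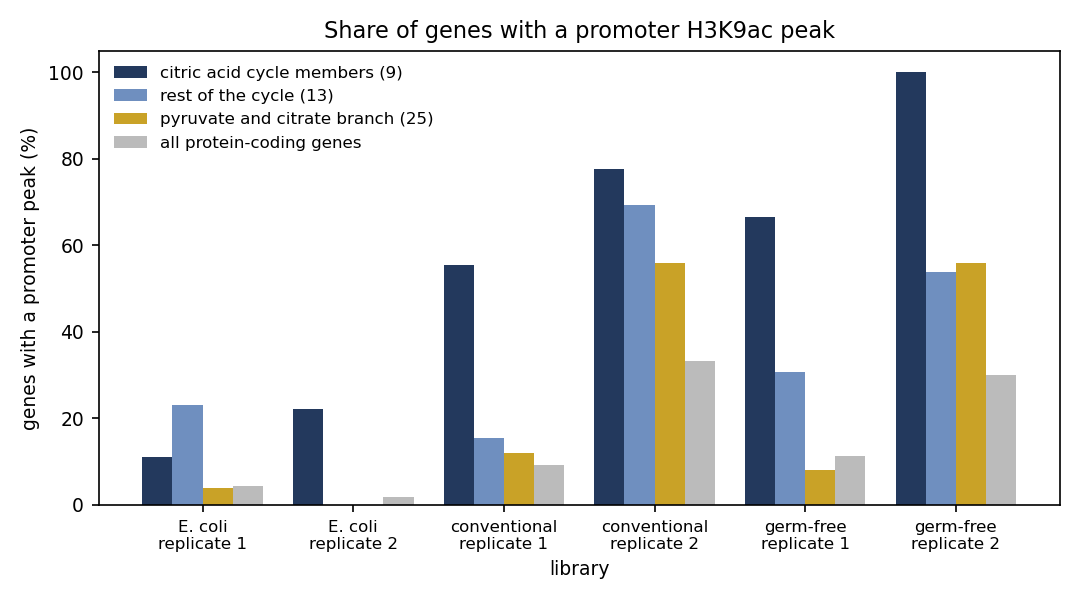
Percentage of genes with a promoter peak in each library for the 9 members, the other 13 genes of the cycle, the 25 genes of the pyruvate and citrate branch, and all protein-coding genes. The members' bars stand at 11.1 and 22.2% in the E. coli libraries and at 66.7 and 100% in the germ-free libraries, where those of all genes stand at 4.3 and 1.91% and at 11.2 and 30.1%.

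Across the set the number of libraries with a promoter peak ran from 5 for Cs and Ogdh, through 4 for Sucla2, Mdh2 and Dlst, 3 for Dld, and 2 for Idh3a and Fh1, to 1 for Suclg1. Of the 9 members 5 were called in 4 or more libraries, as were 18.4% of the 8209 genes with a promoter peak in any library. As the members were chosen with earlier results known, this too is a description only. Cs, Ogdh, Dlst and Mdh2 were called in both conventional and both germ-free libraries, as were 1230 of the 21887 protein-coding genes. The gene whose within-list percentiles over the 6 libraries were most like those of Cs, which had a higher mean percentile than Ogdh, was Dazap2, with a mean absolute difference of 3.35 percentile points, followed by Fkbp2 with 3.69 and Ikbke with 4.15.

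The members' peaks were not stronger than those of other genes in every list. The median percentile of the members' strongest promoter peaks was 68.9 and 32.5 in the E. coli lists, 35.1 and 84.4 in the conventional lists and 73.3 and 67.6 in the germ-free lists. Over all genes with a promoter peak it was 51.9 and 54.1, 57.7 and 78.4, and 67.4 and 77.9 in the same order. The members were thus above the genes at large in 3 lists and below them in the other 3. In the E. coli lists the members' values rest on 1 and 2 genes, against 941 and 418 genes at large. Pileups of the 48 intervals ran from 4 to 15 extended reads with a median of 7, so each call rests on few reads.

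**Figure D4:**
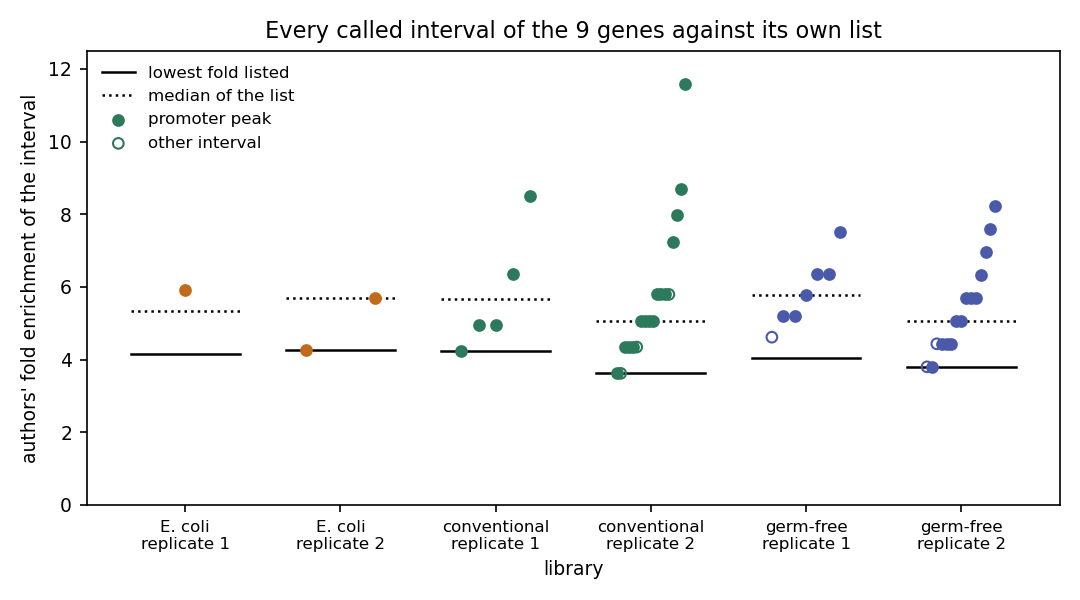
Fold enrichment of each of the 48 intervals of the 9 genes in each library (points, filled for promoter peaks and open for other intervals), with lines at the lowest (solid) and median (dotted) fold of that library's list. Most points lie within a few units of the lowest fold listed, and the highest, 11.6, is Sucla2 in conventional replicate 2.

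The peaks sat mainly just inside the genes. Of the 41 promoter intervals, 36 lay wholly downstream of the outermost start site, 2 lay across it (Sucla2 in conventional replicate 2 and Suclg1 in germ-free replicate 2) and 3 lay wholly upstream. Where a summit was listed, in 28 of them, its median was 517 bases downstream of the start. Measured from the outermost start, the midpoint was downstream in all promoter intervals of the E. coli libraries and of conventional replicate 1, in 92.9% in conventional replicate 2, and in 83.3 and 84.6% in the germ-free libraries, against 76.4 to 86.9% per library over all genes. From the nearest start the share was 50% for the 2 intervals of E. coli replicate 2 and the same as before in the other libraries, against 69.7 to 80.9% over all genes. The 7 other intervals were intronic, with folds of 3.62 to 5.79, and belonged to Cs and Ogdh. Over the 9 genes 43 pairs of libraries called the same gene, and in 38 of them the intervals overlapped.

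The median length of DNA covered per called member was 250 and 292.5 bases in the E. coli libraries (1 and 2 members), 260 and 604 in the conventional libraries (5 and 7) and 259 and 496 in the germ-free libraries (6 and 9). Over all genes with a promoter peak it was 210 and 219, 279 and 541, and 247 and 558 bases in the same order. The wider values went with the 2 longest lists, for the members as for genes at large.

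Of the other genes of the cycle, 13 were examined, among them the remaining isocitrate dehydrogenase subunits, Suclg2, the 4 succinate dehydrogenase subunits, the cytosolic malate dehydrogenase and the second 2-oxoglutarate dehydrogenase Ogdhl. A promoter peak was called at 3 and 0 of them in the E. coli libraries, at 2 and 9 in the conventional libraries and at 4 and 7 in the germ-free libraries. As shares these were 23.1 and 0%, 15.4 and 69.2%, and 30.8 and 53.8%. Over all genes the shares were 4.3 and 1.91%, 9.26 and 33.3%, and 11.2 and 30.1%. The mean of the E. coli libraries was 1.5 ± 2.12 and that of the germ-free libraries 5.5 ± 2.12 (SD, n = 2 each), a difference of -4 genes (two-sided exact permutation p = 0.333). The conventional mean was 5.5 ± 4.95, a difference from the germ-free libraries of 0 genes (exact permutation p = 1) and from the E. coli libraries of 4 genes (exact permutation p = 0.667). Sdhc and Sdhd, which encode the membrane anchors of succinate dehydrogenase, were called in the most libraries, 4 each, E. coli replicate 1 among them. Both have promoter intervals that the authors tied to more than 1 gene, those of Sdhd also to Timm8b. Aco1, which encodes the cytosolic aconitase, and Ogdhl had no promoter peak in any library.

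The 25 genes around pyruvate and citrate cover the pyruvate dehydrogenase complex and its kinases and phosphatases, the pyruvate and citrate carriers, malic enzymes, acetyl-CoA synthetases and transaminases. A promoter peak was called at 1 and 0 of them in the E. coli libraries, at 3 and 14 in the conventional libraries and at 2 and 14 in the germ-free libraries. As shares these were 4 and 0%, 12 and 56%, and 8 and 56%. Over all genes the shares were 4.3 and 1.91%, 9.26 and 33.3%, and 11.2 and 30.1%. In both E. coli libraries and in germ-free replicate 1 the branch was near the share over all genes, with 1, 0 and 2 of its 25 genes called. The difference was -7.5 genes between the E. coli and the germ-free libraries (two-sided exact permutation p = 0.333), 0.5 between the conventional and the germ-free libraries (exact permutation p = 1) and 8 between the conventional and the E. coli libraries (exact permutation p = 0.333). Mpc1, a subunit of the mitochondrial pyruvate carrier, was called in the most libraries, 4. Pdha1, Pdk3, Pdp1, Pcx, Pck2, Acss2 and Got2 had no promoter peak in any library. The median number of libraries with a promoter peak was 4 for the members, 2 for the rest of the cycle, 1 for the pyruvate and citrate genes and 0 over all genes. These gene lists were chosen with earlier results of these data known, so the order of their medians is a description only.

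The promoters were read for what the calls did not use. Promoter entries were found for 8 of the 9 members, all but Idh3a. Their GC content over the 250 bases had a median of 56.2% (43.6% at Dld to 64.8% at Dlst), against 55.2% over 17492 protein-coding genes. The ratio of observed to expected CpG dinucleotides had a median of 0.884, with Fh1 lowest at 0.587 and Mdh2 highest at 0.951. Its median was 0.537 over all genes, 0.772 over the 6733 that had a promoter peak in some library, and 0.309 over the 10759 that had none. The members' median was thus nearer that of genes with a peak than that of genes without. Every member is itself a gene with a peak, so this nearness is not a separate result.

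Of 7 motifs searched on both strands, 3 were found. The GC box GGGCGG, which binds Sp factors, was in 5 of the 8 promoters (Cs, Dlst, Sucla2, Fh1 and Mdh2) in 42.7% of all promoters of this length and in 61.9% of those of genes with a promoter peak. The CCAAT box, bound by NF-Y, was in 4 (Cs, Ogdh, Dld and Fh1), in 36.5% of all and in 35.2% of those of genes with a peak. The cyclic AMP response element TGACGTCA was in 2, in 1.98% of all and in 3% of those of genes with a peak. It began 51 bases before the start of Ogdh and 127 bases before that of Mdh2. No match overlapped another. The letters CCGGAAGT (Ets factors), AAGATGGCG (YY1) and TNAAGGTCA (estrogen-related receptors) were in none of the 8 windows, and in 3.82, 0.675 and 0.960% of all. The NRF-1 motif, searched as its full palindrome, was also in none of the 8 and in 1.06% of all. Suclg1, called in 1 library, had no match to any of the 7 motifs, while Fh1, called in 2, had 3 matches.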

How the data were processed

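The 6 libraries and their groups were taken from the labels, and each deposited file was the peak list of 1 library. Per the labels, chromatin was immunoprecipitated with an H3K9ac antibody and read as single-end 50 bp reads. The submitters' processing notes name MACS2 2.1.1.20160309, Bowtie 1.2.0 and the mm10 build. Calling options and any input control were not given in the sources used here. Per the file headers, the deposited lists give for each interval the pileup (coverage by extended reads, a signal), the -log10 p-value, the fold enrichment (a ratio of pileup to background), the -log10 q-value, a region class and the nearest gene. For germ-free replicate 2 the deposited header has 14 names but each line 13 cells, with neither summit nor pileup. The values showed which column was which, and pileups were inferred from the steps between folds. Mitochondrial lines, which hold 4 cells fewer and no gene, were left out.

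Lines repeating an interval for another summit were merged. Of 10621 gene names 10579 matched the RefSeq gene table (GRCm38.p6). A promoter peak was an interval tied to the gene by the authors that overlapped 1 kb on either side of any start site: RefSeq promoter table entries, the transcript starts in the lists and the gene's 5' end. For 2790 genes without a known strand both ends were used. Calls per group were compared by exact two-sided permutation of the libraries, 3 splits for 2 against 2, a count tested on simulated data. Intervals on pileups are exact Poisson (95%). Folds of several lists are given side by side as values within each list, and none was tested between lists.

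The members and all gene lists were chosen with earlier results of these data known. All members are named; of the other lists, genes with a promoter peak in the most libraries or in none, and the 3 genes nearest by within-list percentile to the member called in the most libraries (Cs and Ogdh tied, and Cs had the higher mean percentile). Alternatives were a fixed number of intervals per list, a -log10 q or fold of 5 or more, intervals tied to 1 gene, a 2.5 kb window, the authors' promoter class, an overlap of 500 bases, each library left out and a replicate block. Overlapping peaks in both libraries and the outermost start site alone were added after the data were seen. The work was done in Python 3.11.15 with SciPy 1.17.1, NumPy 2.4.6, pandas 2.3.3 and matplotlib 3.10.9.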

Additional observations from a re-analysis of the deposited data

How the results depend on the processing

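Of 150 values under another setting 10 changed sign. Another 113 kept their direction or value (for both-and-neither counts, stayed within 1.5 times), though some differences shrank several-fold, and 27 moved otherwise. The 113 include the replicate block, which alters only the p-value, so its differences could not change. No threshold entered this tally. With 868 intervals per list, the most significant ones, the difference in members (any interval alike) was 1 for E. coli minus germ-free, 0.5 for conventional minus germ-free and -0.5 for conventional minus E. coli. For the rest of the cycle E. coli minus germ-free was -0.5, conventional minus germ-free -1 and conventional minus E. coli -0.5, and for the pyruvate and citrate genes all 3 were 0. With 500 bases of overlap the members gave -1 for E. coli minus germ-free, 1 for conventional minus germ-free and 2 for conventional minus E. coli. Conventional minus germ-free was then 0.5 for the rest of the cycle and 0 for the pyruvate and citrate genes, and E. coli minus germ-free 0 for the rest of the cycle and -1.5 for the pyruvate and citrate genes. At a -log10 q of 5 or more the members gave -3.5, -0.5 and 3 for the 3 differences. For conventional minus germ-free the rest of the cycle gave -0.5 at a -log10 q or a fold of 5 or more and -1 in the 2.5 kb window or with the outermost start alone (added after the data were seen). The pyruvate and citrate genes gave 0 at that q and in that window, -2 at that fold and -0.5 with intervals tied to 1 gene. The 2 members in both conventional and neither E. coli library became 0 with 868 intervals or 500 bases, and 1 at a fold of 5 or with intervals tied to 1 gene. The 0 members in both conventional and neither germ-free library became 1 with 868 intervals (Sucla2) or at a -log10 q of 5 (Mdh2). Of all genes 0.302 and 0.356% then had that pattern, against 0.306% before. The 4 in both germ-free libraries and neither of the E. coli ones numbered 0 with 868 intervals or 500 bases, and 2 where peaks had to overlap (Dld and Mdh2, added after the data were seen). Of all genes 0.338, 0.621 and 5.96% then had that pattern, against 6.78% before. At a -log10 q of 5 none of the 4 had it, and 2 others, Cs and Ogdh, did, with 2.61% of all genes. The 1 in both germ-free and neither conventional library, Fh1, became 0 with 868 intervals, 500 bases, overlapping peaks or that q. For all genes the share was then 0.164, 0.0457, 0.201 and 0.238%, against 0.251% before. The cause of these changes was not tested beyond what each setting removes.

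Leaving out 1 library at a time, the difference in members (any interval alike) was -7.5 to -4.5 for E. coli minus germ-free, -3 to 0 for conventional minus germ-free and 3.5 to 5.5 for conventional minus E. coli. In the same order it was -5.5 to -2.5, -3.5 to 3.5 and 0.5 to 7.5 for the rest of the cycle, and -13.5 to -1.5, -5.5 to 6.5 and 2.5 to 13.5 for the pyruvate and citrate genes. The both-and-neither counts were 2 to 4, 0 to 1, 4 to 6 and 1 to 2 in the order above, and 0 for both E. coli libraries. The shares of all genes were 5.73 to 28.3%, 0.343 to 6.54%, 7.25 to 25.2% and 0.260 to 4.73% in that order. For both E. coli libraries the share was at most 0.105%. The labels do not say that replicate numbers pair libraries, and same-numbered libraries deviated together with correlations of 0.0380, 0.0510 and 0.0141 over 8209 genes. With a replicate block the differences in members stayed -6, -1.5 and 4.5, and the smallest possible exact permutation p was 0.5. No test here could pass a threshold of 0.05, so a p above it says nothing about stability. Pileups of 4 to 15 reads and the lowest fold of each list limit what a missing call can show.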
